A study of Homo sapiens with 16 samples.

Results

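Genes of iron uptake, storage and export were followed in breast cancer cells over 45 h of HER2 kinase inhibition. All probes were taken whose gene symbol in the deposited signal table was TFRC, FTH1, FTL, SLC40A1, SLC11A2, ACO1, IREB2, LCN2 or CP, which gave 8 probes of 24526, for 8 of the 18631 gene symbols on the array. Of the 9 genes 8 had a probe, 1 each, and no probe carried the symbol FTH1. The main changes were a rise of the iron exporter SLC40A1 and a fall of the transferrin receptor TFRC, with smaller rises of the importer SLC11A2 and the ferritin light chain FTL. SLC40A1 stood 3.08-fold above its 0 h level at its highest, and TFRC 2.001-fold below its own at 21 h, each on 1 array per time.

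The cells were SUM225 (SUM-225 in the labels), a line from a breast cancer with amplification and over expression of HER2. By the labels they were grown in Ham's F-12 with 5% fetal bovine serum, insulin at 5 µg/ml and hydrocortisone at 1 µg/ml. The labels give this medium for all 16 arrays, the 0 h array included. The study's methods instead place SUM225 in a serum-free medium without insulin or EGF, a difference not resolved here. CP724,714, a small molecule that blocks the HER2 kinase, was added at 1 µM, and RNA from parallel cultures was put on 1 Illumina bead array at each of 16 times, every 3 h from 0 to 45 h. The comparison asked how expression changed as a function of time in the inhibitor. For its MCF10A lines the study describes a medium change at the start of treatment, and for SUM225 this is not stated. No time point had a second array and no time course without inhibitor was analysed here. The inhibitor, the hours in culture and any change of medium at the start thus cannot be told apart. All values are from a single cell line, and in RNA of a whole culture fewer cells making a transcript and less transcript per cell cannot be told apart.

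Cells take up iron mainly as iron-loaded transferrin, which the transferrin receptor carries into endosomes, where the divalent metal transporter SLC11A2 (DMT1) moves the iron into the cytosol. Iron not in use is stored in ferritin, a shell of heavy (FTH1) and light (FTL) chains, and leaves the cell through ferroportin, SLC40A1. The iron regulatory proteins ACO1 (IRP1) and IREB2 (IRP2) bind hairpins called iron response elements when iron is scarce, which stabilises TFRC mRNA and blocks translation of ferritin and ferroportin mRNA. Ferritin is thus controlled in large part after transcription, which an mRNA array does not measure. Lipocalin 2 (LCN2) binds bacterial siderophores, small iron chelators, and ceruloplasmin (CP) is a secreted copper ferroxidase that works with ferroportin. In breast cancer, high TFRC and low SLC40A1 have been described as an iron-hungry state.

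Promoter windows from 250 bases before to 50 after the start of a gene were found in RefSeq (GRCh38.p14) for 7 of the 9 genes (not FTH1 or CP). The sequences below are the bases just upstream of the starts of TFRC and SLC40A1, whose probes moved most, and of LCN2, and a stretch of the FTL transcript with the loop letters of an iron response element. TFRC is on the minus strand at chr3:196082091-196082210, SLC40A1 on the minus strand at chr2:189580787-189580906, LCN2 on the plus strand at chr9:128149253-128149452, and the FTL stretch on the plus strand at chr19:48965329-48965358, which is bases 21 to 50 of the transcript. Each is printed 5′ to 3′ on the strand of its gene. Capitals mark, in TFRC, the hypoxia response core ACGTG and the TATA box TATAAA, in SLC40A1 (on the opposite strand) and LCN2 a match to an NF-kB-like motif (GGG, any 2 bases, T, any 2 bases, CC), and in FTL the loop CAGTGN.
TFRC: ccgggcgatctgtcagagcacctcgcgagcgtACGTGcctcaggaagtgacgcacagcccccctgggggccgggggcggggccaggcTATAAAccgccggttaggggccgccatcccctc
SLC40A1: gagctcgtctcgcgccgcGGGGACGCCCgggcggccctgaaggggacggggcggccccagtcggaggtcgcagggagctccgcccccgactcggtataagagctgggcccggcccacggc
LCN2: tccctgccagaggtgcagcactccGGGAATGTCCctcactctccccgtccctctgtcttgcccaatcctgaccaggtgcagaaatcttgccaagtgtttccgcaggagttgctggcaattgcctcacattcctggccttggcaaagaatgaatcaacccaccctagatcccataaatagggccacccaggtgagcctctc
FTL: gtctgtctcttgcttcaaCAGTGTttggac

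The letters ACGTG, searched on both strands, were in 2 of the 7 windows (TFRC, 88 bases before the start, and FTL on the opposite strand) and in 21.4% of all 35116 RefSeq windows. The NF-kB-like motif, on both strands, was in 3 of the 7 (SLC40A1, SLC11A2, LCN2) and in 22% of all windows. The antioxidant response core TGACNNNGC (both strands) and the E-box CACGTG (both strands, each holding ACGTG) were in 0 of the 7, against 13.3% and 7.26% of all windows. TATAAA on the sense strand was in 1 of the 7 (TFRC, 33 bases before the start) and in 7.33% of all. CAGTGN, searched on the sense strand of the 50 bases after the start, was in 1 of the 7 (FTL, at base 39) and in 6.36% of all. A match describes the letters of the window and no more.

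Between 14110 and 15073 of the 24526 probes were detected on each array, at a detection p under 0.05. The median raw signal ran from 242 to 384, with the 27 h array highest, and the brightest probe from 71727 to 74152. Breast epithelial markers were detected on all 16 arrays for 8 of 8 genes, and 2 of the 8, KRT8 (-0.68 ± 0.10, limma adjusted p = 2.14e-05) and KRT18 (-0.74 ± 0.10, adjusted p = 7.73e-06), fell by linear trend. KRT19 (0.03) and ERBB2 (0.02) did not pass, with signals near the top of the scale. The brightest tested probe stands for each marker. Further tested probes had linear changes of 0.44 and 0.06 for ERBB2 and -0.07 for KRT18, so the probes of these genes differed. Hepatocyte markers (ALB, APOA1, HAMP, TF) were detected for 0 of 4 on any array. Of 5 leukocyte and macrophage markers PTPRC was detected on 0 arrays, while CD68, CD14 and LYZ were detected on all 16, and CD68 (0.38 ± 0.14) and CD14 (0.34 ± 0.14, SE) rose by linear trend. Of the erythroid markers HBB was detected on 0 arrays, and HBA2, detected on 3, fell (-0.86 ± 0.24, adjusted p = 0.00537). The part of these markers in the results was not tested. Arrays were also grouped into sets of 4 consecutive times (0 to 9, 12 to 21, 24 to 33 and 36 to 45 h). The labels give no batch that matches these sets, which were seen in the values. The share of all probes with steps at their borders is not given here.

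Of the 7 genes with a probe that passed the filter on dim probes, 5 depended on time (SLC40A1, FTL, TFRC, SLC11A2 and LCN2), by a limma F-test of a cubic curve in hours at an adjusted p under 0.05, against 51.3% of all 16110 probes tested. By linear trend 3 rose (SLC40A1, SLC11A2, FTL), against 26.0% of all probes, and 1 fell (TFRC), against 21.7%. In 4 (SLC40A1, TFRC, LCN2, FTL) the course departed from a straight line, against 19.3%. These shares come from so few genes that nothing is read from them about the genes as a group. With the set of 4 arrays as a factor beside a straight line, 0 of the 7 kept a linear trend, against 0.900% of all probes (145 of 16110). Without replicate cultures, each error is the scatter of single arrays around a smooth curve.

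In fold terms, with no test, 1 gene (SLC40A1) was at least 1.7-fold above 0 h at 3 h, against 1.82% of all probes, and the same gene at 45 h, against 13.7%. No gene of the 7 was as far below 0 h at 45 h, against 13.5% of probes. SLC40A1 was over that fold at all 15 later times, against 0.348% of probes, which makes 56 probes in all. At 1 or more later times 2 genes (SLC40A1 and TFRC) were past 1.7-fold either way, against 50.3%. All of these counts rest on the single 0 h array.

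TFRC (probe ILMN_1674243) carries transferrin-bound iron into the cell and is a target of the iron regulatory proteins. On the normalised log2 scale its lowest value was 13.23 at 21 h, its median 13.63 and its highest 14.43 at 3 h, a 2.29-fold range. The 4 arrays of 0 to 9 h read 14.23, 14.43, 14.33 and 14.22, and the 12 later ones lay between 13.23 and 13.75. The share of all probes with such a split was not counted. The linear change over 45 h was -0.69 ± 0.17 (SE, limma adjusted p = 0.00233). The largest step was -0.93, between 9 and 12 h, and 2.22% of all probes fell by as much or more over that interval. The level was 1.92-fold below that of 0 h by 12 h, 2.001-fold by 21 h and 1.49-fold by 45 h.

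The step in TFRC coincided with the border between the first and the second set of arrays. Set means were 14.30 ± 0.10, 13.40 ± 0.18, 13.54 ± 0.21 and 13.64 ± 0.02 (SD of 4 arrays each, which are different times and not replicates). Within the sets the change per 45 h was -0.73 ± 0.42 (limma adjusted p = 0.445), near in size to the change over all arrays but with a wider error. Leaving out single arrays moved the linear change between -0.81 and -0.55, with an adjusted p of at most 0.0231. The raw signal was 15748 to 19719 on the first 4 arrays and 8841 to 14190 on the later ones, except that the bright 27 h array read 18563.

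SLC11A2 (probe ILMN_1745034), the importer that takes iron out of endosomes, rose in small steps. The log2 value was lowest at 0 h (12.93), had a median of 13.20 and was highest at 45 h (13.46). The change over 45 h was 0.36 ± 0.08 (SE, limma adjusted p = 0.000713) and the departure from a line had an adjusted p of 0.405. The whole range was 1.45-fold. Leaving out single arrays gave 0.32 to 0.41, and within the sets the change was 0.81 ± 0.33 (adjusted p = 0.247). With a step between 21 and 24 h in the limma model the change was 0.43 (adjusted p = 0.141). TFRC and SLC11A2, both on the uptake side, thus had linear trends in opposite directions.

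**Figure D1:**
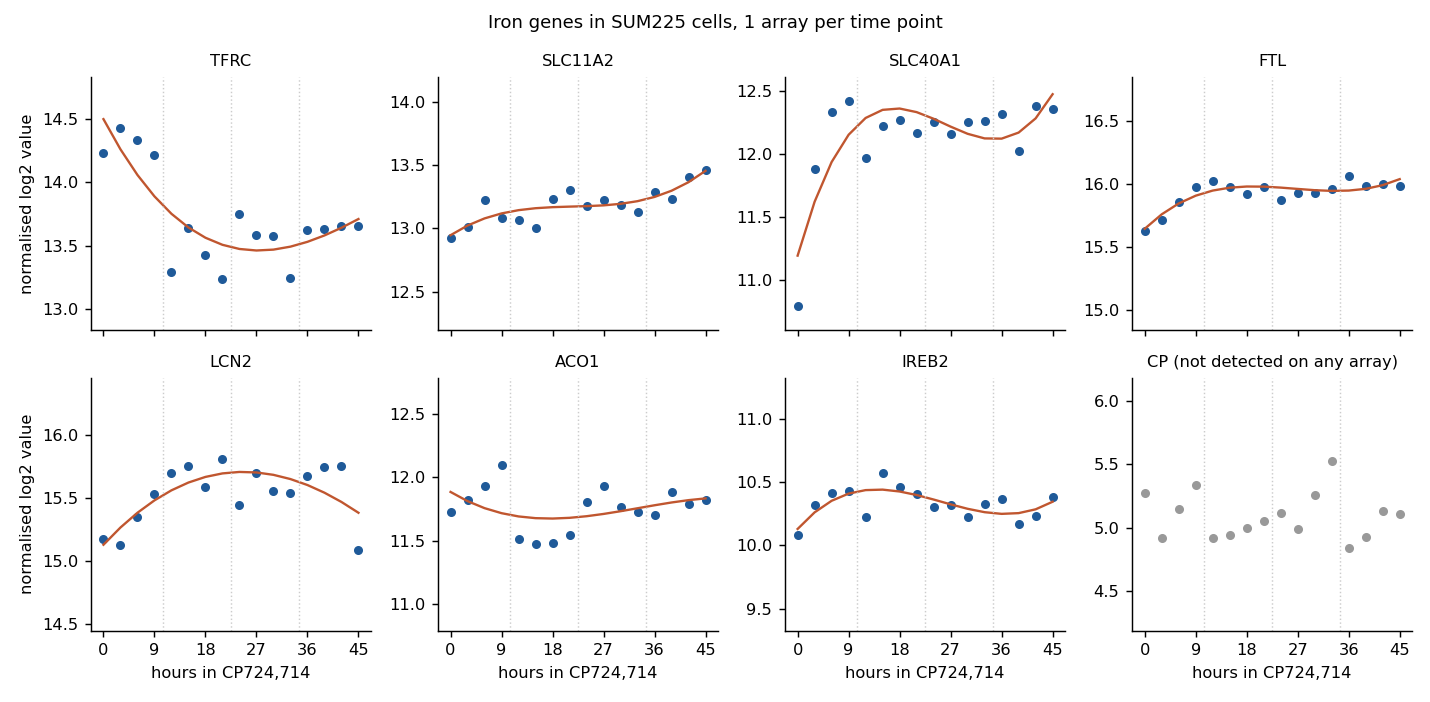
Normalised log2 values (y axis) against hours in CP724,714 (x axis) for the 8 probes, 1 point per array, with the fitted cubic as a line for the 7 tested probes and dotted lines at the borders of the sets of 4 arrays. All panels span an equal height in log2 units. TFRC drops between 9 and 12 h, SLC40A1 climbs from 10.80 at 0 h to 12.42 at 9 h and then stays high, and CP was not detected on any array.

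SLC40A1 (probe ILMN_2053103), the sole known iron exporter of mammalian cells, had the widest range of the 7 genes. Its log2 value went from 10.80 at 0 h through 11.88 (3 h) and 12.34 (6 h) to 12.42 (9 h), and the 12 values from 12 to 45 h lay between 11.97 and 12.38. The 0 h array was the lowest of the 16, 1.09 below the next, and no later value passed that of 9 h. The level reached 2.12 times that of 0 h by 3 h and 3.08 times by 9 h, and stood at 2.25 times by 12 h and 2.94 times by 45 h.

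The linear change of SLC40A1 was 0.61 ± 0.17 (SE, limma adjusted p = 0.00621), the course departed from a line (adjusted p = 0.00937), and a straight line describes it poorly. The step from 0 to 3 h was 1.09 log2 units, and 0.459% of probes rose by as much or more over that interval. Between 9 and 12 h it read -0.45, and 11.2% of probes fell by as much or more over that interval. The linear trend rested on the 0 h array, since without it the change was 0.16 (adjusted p = 0.321), while the step itself is a difference between single arrays with no error. Within the sets the change per 45 h was 2.46 ± 0.92 (adjusted p = 0.21), and with a step between 21 and 24 h it was 0.15 (adjusted p = 0.851). The raw signal ran from 1845 at 0 h to 3051 at 3 h and 5418 at 9 h.

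CP (probe ILMN_1813206), the ferroxidase that partners ferroportin, was detected on 0 of 16 arrays, with raw signals from 152 to 200. It was not tested, and no statement on its course can be made. Hephaestin (HEPH), a membrane ferroxidase of the same family, and hepcidin (HAMP), the hormone that triggers breakdown of ferroportin, were likewise detected on 0 arrays.

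FTL (probe ILMN_1740429), the light chain of ferritin, rose within a narrow range near the top of the scale. Its log2 value was lowest at 0 h (15.63), 15.72 at 3 h and 15.86 at 6 h, had a median of 15.97 and was highest at 36 h (16.06), a 1.35-fold range. From 9 h on the values ran from 15.87 to 16.06. The linear change was 0.23 ± 0.05 (SE, limma adjusted p = 0.00166), with a departure from a line (adjusted p = 0.029). Without the 0 h array the change was 0.15 (adjusted p = 0.0522), with median scaling 0.16 (adjusted p = 0.377), with a step between 21 and 24 h 0.35 (adjusted p = 0.0797) and within the sets 0.39 ± 0.26 (adjusted p = 0.531).

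The raw FTL signal lay at 65.8% to 95.0% of the brightest probe of its array, and its rank among the 24526 probes ran from 187 to 68. Between 68 and 161 probes per array were over 90% of the brightest, so FTL sat where signals crowd together. LCN2 lay at 38.0% to 89.4% of the brightest, ranks 302 to 150. TFRC reached 26.7% at most, SLC11A2 20.1%, SLC40A1 9.95%, ACO1 8.52% and IREB2 3.03%. Near the top of a scanner's range a difference in RNA can give a smaller difference in signal, so the fold changes of FTL and LCN2 are given as measured and may be lower than those of the RNA. Whether they are was not tested.

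**Figure D2:**
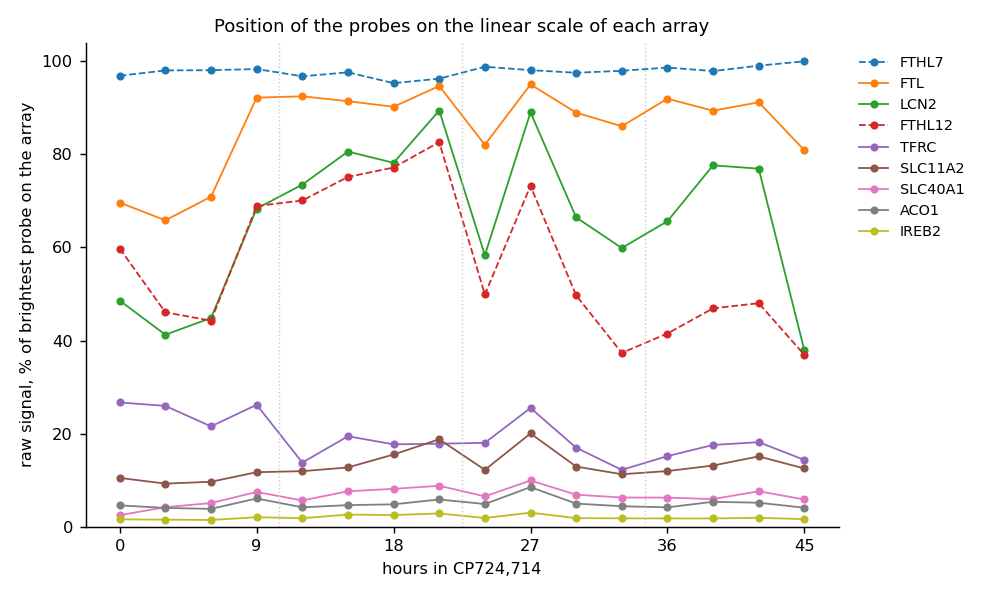
Raw signal as a percent of the brightest probe on the same array (y axis, linear) against hours in CP724,714 (x axis), 1 point per array, for the 7 tested probes and, dashed, for the probes FTHL7 and FTHL12. FTHL7 stays between 95.3% and 100% and FTL between 65.8% and 95.0%, while SLC40A1, ACO1 and IREB2 stay under 10%.

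Ferritin heavy chain had no probe under its own symbol, but 7 probes carried the symbols FTHL2, FTHL3, FTHL7, FTHL8, FTHL11, FTHL12 and FTHL17, which lie outside the rule and were looked at after their values had been seen. The RefSeq gene table lists all of these but FTHL17 as pseudogenes of FTH1. Such copies are near-identical to the parent gene, the probe sequences were not analysed here, and which transcript each probe bound is uncertain. FTHL7 read 95.3% to 100% of the brightest probe on every array and had a linear change of 0.01 ± 0.04 (SE, limma adjusted p = 0.796), in a place on the scale where a change may not show. Lower on the scale, 4 probes fell over the 45 h. FTHL12 changed by -0.51 ± 0.09 (adjusted p = 6.7e-05), FTHL3 by -0.74 ± 0.13 (adjusted p = 8.4e-05), FTHL11 by -0.68 ± 0.11 (adjusted p = 2.7e-05) and FTHL2 by -0.62 ± 0.15 (adjusted p = 0.00234).

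These 4 probes had like courses over the 16 arrays, with pairwise Pearson r from 0.83 to 0.94, as a description of probes that may share a target. The set means of FTHL12 were 15.40, 15.58, 15.12 and 15.09, with the drop between 21 and 24 h, again at a border of sets. With a step at that border in the limma model no FTHL probe had a linear trend, and FTHL12 (0.01), FTHL2 (0.07) and FTHL3 (0.12) turned in sign. Under the other scalings the 4 kept their direction and their call. Within the sets no FTHL probe had a trend (adjusted p from 0.61 to 0.985). FTHL8 was detected on 8 arrays and changed by -0.15 ± 0.27 (adjusted p = 0.682), and FTHL17 was detected on 1 array and not tested. Without a step term, the light chain probe and the 4 heavy chain-like probes thus had linear changes of opposite sign, FTL with 0.23 and the others with -0.74 to -0.51.

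**Figure D3:**
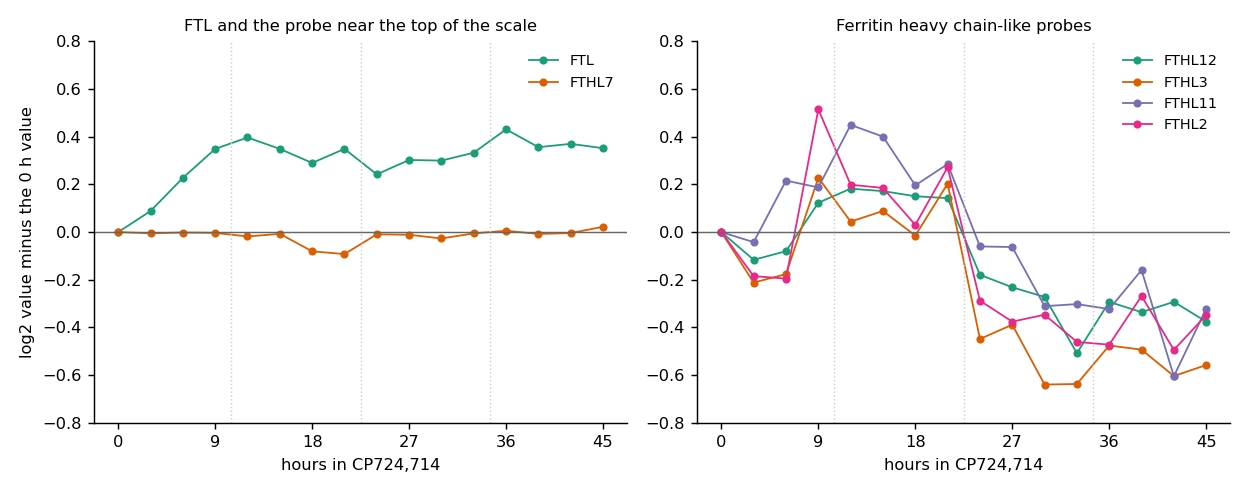
Log2 value minus the 0 h value (y axis) against hours in CP724,714 (x axis), 1 point per array, for FTL and FTHL7 (left) and for 4 further ferritin heavy chain-like probes (right), with dotted lines at the borders of the sets of 4 arrays. FTL lies above its 0 h value at all later times, FTHL7 stays near 0, and the 4 probes on the right lie below 0 from 24 h on.

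LCN2 (probe ILMN_1692223), the siderophore-binding lipocalin, depended on time (limma adjusted p = 0.00934) without a linear trend (0.23 ± 0.12 SE, adjusted p = 0.137). Its log2 value was 15.17 at 0 h and 15.13 at 3 h, had a median of 15.57, was highest at 21 h (15.81) and lowest at 45 h (15.09), a 1.64-fold range. The 45 h array read 0.66 below the 42 h array, and 6.46% of all probes fell by as much or more over that interval. Without the 45 h array the change was 0.46 (adjusted p = 0.000332). With array weights it was 0.49 (adjusted p = 0.000843), with a step between 21 and 24 h 0.84 (adjusted p = 0.0376) and within the sets -0.06 ± 0.56 (adjusted p = 0.976). The 45 h array also had the fewest detected probes of the 16 (14110), and its part in the low LCN2 value was not tested.

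The iron regulatory proteins ACO1 and IREB2 gave no call over the 16 arrays. ACO1 (probe ILMN_1750800), which is cytosolic aconitase when it carries an iron-sulphur cluster and IRP1 when it does not, ran from 11.47 at 15 h through a median of 11.78 to 12.10 at 9 h. Its linear change was 0.03 ± 0.14 (SE, limma adjusted p = 0.885), and the adjusted p for any dependence on time was 0.595. Between 9 and 12 h it read -0.59, and 7.06% of probes fell by as much or more over that interval. The 4 arrays of 12 to 21 h had a mean of 11.50 ± 0.03 (SD). The other set means were 11.90, 11.81 and 11.80, a shape that a cubic follows poorly. The sign of the linear change was not fixed, since it was -0.03 with cyclic loess and -0.73 (adjusted p = 0.0886) with a step between 21 and 24 h.

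IREB2 (probe ILMN_1726554), or IRP2, which is degraded when iron is plentiful, ran from 10.08 at 0 h through a median of 10.32 to 10.57 at 15 h, a 1.40-fold range. The linear change was -0.03 ± 0.10 (SE, limma adjusted p = 0.834) and the adjusted p for time was 0.137, which became 0.0383 without the 12 h array. The values of 3 to 45 h lay between 10.17 and 10.57, all above that of 0 h. Its sign too turned with the setting, to 0.09 with a step between 21 and 24 h and to 0.62 (adjusted p = 0.551) within the sets. Protein levels and the binding of either regulator to RNA were not measured by these arrays.

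The courses most like those of the time-dependent genes were picked by Pearson r over the 16 arrays, which share their normalisation and the sets, with no p. For TFRC these were SLC27A2 (0.95), LACTB2 (0.95) and HPRT1 (0.94), and for SLC40A1 CABC1 (0.94), BMF (0.93) and FLJ20152 (0.93). FTL was followed most closely by RTN3 (0.95), FLJ39575 (0.93) and ZNF211 (0.93), SLC11A2 by ZNF30 (0.92), NSUN3 (0.91) and ACADM (0.88), and LCN2 by MOSPD3 (0.91), GPR56 (0.90) and TNFRSF1A (0.90). Among the 7 genes themselves r was highest for FTL with SLC40A1 (0.75) and lowest for FTL with TFRC (-0.67).

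Around these genes, 70 others of iron handling were listed by role, of which 68 had a probe and 57 were tested, with the brightest probe standing for a gene. By linear trend 16 rose and 10 fell, against 27.0% rising and 22.0% falling of all 13108 genes tested, and 31 did not pass. The median linear change of the 57 was 0.09, beside 0.06 over all genes. With the set as a factor 0 of the 57 had a trend, and with a step between 21 and 24 h 10 did. Of the 26 called genes 0 turned in sign under another scaling, array weights, the step or with any array left out, but 18 lost their call with the step. With the set as a factor 3 of the 26 turned in sign: HMOX1 to -0.13, HPX to -1.32 and FAM96B to 0.04. The 8 of the 26 that kept their call with the step between 21 and 24 h were STEAP2, STEAP4, NCOA4, UROD, HPX, BOLA3, CIAO1 and NUBP1.

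Among 8 tested genes of uptake and ferric reduction 3 rose and 0 fell, against 27.0% rising and 22.0% falling of all genes tested. The roles hold so few genes that nothing is read from their counts. STEAP2 (1.60 ± 0.18, limma adjusted p = 6.67e-07) and STEAP4 (0.35 ± 0.13, adjusted p = 0.0309) are endosomal metalloreductases that act before DMT1, and CYBRD1 (1.45 ± 0.14, adjusted p = 9.78e-08) is a ferric reductase of the cell surface. Transferrin itself (TF) and TFR2, the second transferrin receptor, were detected on 0 arrays. STEAP2 ran from 7.99 at 3 h to 9.88 at 45 h and CYBRD1 from 10.67 at 0 h to 12.53 at 45 h, ranges of 3.72-fold and 3.61-fold that exceed the range of each of the 7 genes above. The STEAP4 call was lost with cyclic loess (0.27, adjusted p = 0.0756) and without the 0, 3, 6 or 39 h array (adjusted p from 0.0525 to 0.215).

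In storage, 1 of 3 tested genes rose, against 27.0% of all genes tested. NCOA4, the receptor that brings ferritin to lysosomes for breakdown, changed by 0.62 ± 0.06 (limma adjusted p = 5.64e-08), from 14.22 at 0 h to 14.98 at 45 h, while the iron chaperones PCBP1 (0.16) and PCBP2 (-0.08) did not pass. Among genes of export and its control 2 were tested, and FLVCR1, a haem exporter listed as FLVCR, fell (-0.66 ± 0.12, adjusted p = 0.000112). Among 4 regulators 1 rose: FBXL5, the iron-sensing ligase subunit that marks IREB2 for degradation (0.75 ± 0.12, adjusted p = 3.02e-05). HIF1A (-0.02), EPAS1 (0.16) and MYC (-0.47) did not pass, though the second probe of HIF1A read -0.29 (adjusted p = 0.0302). MYC was not flat: it read 11.06 at 0 h, its highest value, and 8.17 at 3 h, its lowest, a 7.45-fold range. Its adjusted p for time (limma F-test) was 0.82, and a cubic follows such a sharp drop poorly. Each of these MYC values is from 1 array.

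Haem genes moved both ways. Of 8 tested genes of haem synthesis 3 rose and 1 fell, against 27.0% rising and 22.0% falling of all genes tested. ALAD, the second enzyme of the pathway, rose by 1.05 ± 0.13 (limma adjusted p = 1.46e-06), while the second ALAD probe read 0.55 (adjusted p = 0.0772). Of 7 tested genes of haem breakdown and transport 2 rose and 2 fell. HMOX1, haem oxygenase 1, which frees iron from haem, rose by 1.09 ± 0.17 (adjusted p = 2.08e-05), but within the sets its change was -0.13 (adjusted p = 0.952). SLC46A1, a haem and folate carrier listed as HCP1, fell by 1.73 on the log2 scale. It was detected on 8 arrays, and the size of its change depended on the background correction, at -1.29 with an offset of 50 and -0.71 with no correction.

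In iron-sulphur cluster assembly 5 of 17 tested mitochondrial genes rose and 3 fell, and 1 of 8 cytosolic ones rose and 3 fell. Of all genes tested 27.0% rose and 22.0% fell, and nothing is read from these counts about either role. In mitochondria HSCB (0.77 ± 0.14), a co-chaperone, and NFS1 (0.69 ± 0.11), the cysteine desulphurase, rose, while the second NFS1 probe read 0.03. BOLA3 (-1.26 ± 0.15), a late assembly factor, SFXN1 (-1.15 ± 0.16), a carrier of serine, and ABCB6 (-0.75 ± 0.09), a porphyrin transporter, fell. Of the cytosolic genes CIAO1 rose (0.75 ± 0.13), and the scaffold genes NUBP1 (-0.64 ± 0.11) and NUBP2 (-0.53 ± 0.14) fell with FAM96B (-0.26 ± 0.10), by limma at an adjusted p under 0.05. The FAM96B call was lost without any 1 of 7 arrays (adjusted p from 0.0608 to 0.316).

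**Figure D4:**
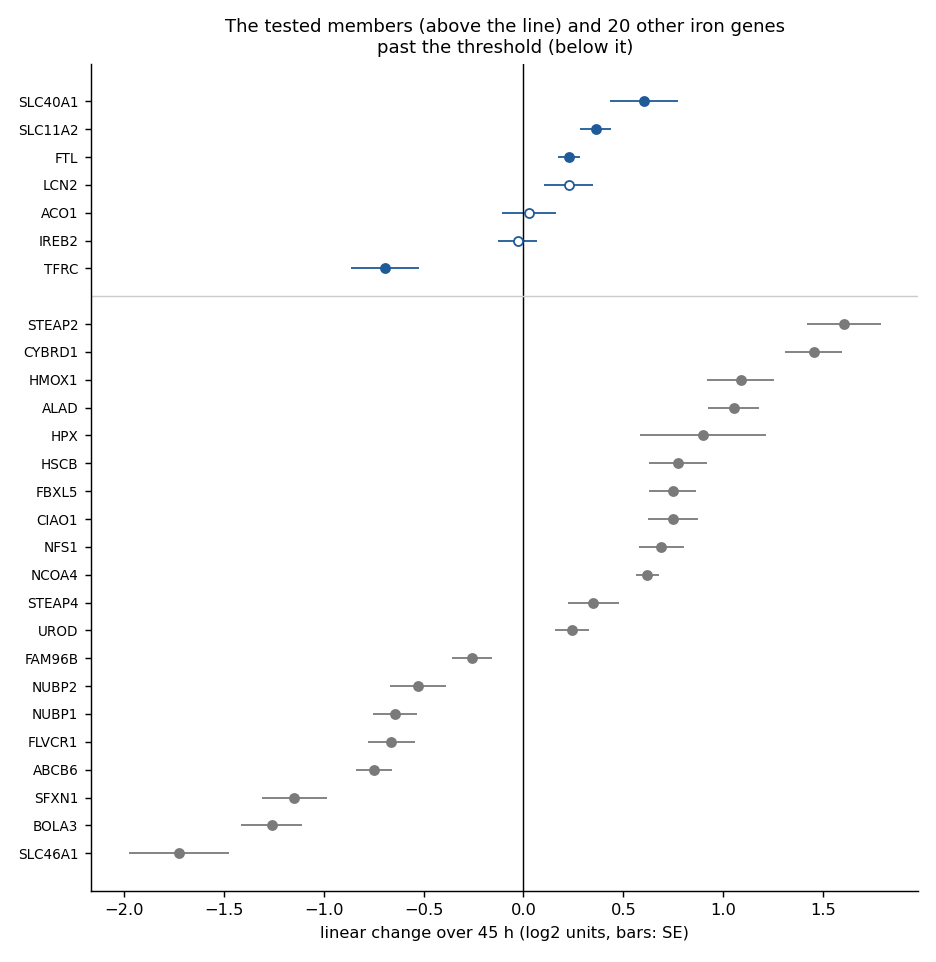
Linear change over 45 h in log2 units (x axis, bars are the SE of the limma fit over 16 arrays) for the 7 tested genes (blue, filled where the adjusted p was under 0.05) and for 20 of the 26 other iron genes with a linear trend, those named in the text (grey, below the line). TFRC lies at -0.69 and SLC40A1 at 0.61, and the grey points run from -1.73 for SLC46A1 (-0.71 with no background correction, where BOLA3 has -1.24) to 1.60 for STEAP2.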

How the data were processed

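SUM225 RNA was measured on 16 Illumina arrays, 1 per time point. The study's methods name the human Ref8v2 array, the labels give no version, and the scanning software is not given in the sources used here. The authors deposited a non-normalized table of signal intensity per probe, and the deposited detection p-value of each signal. Both deposited columns were used for every sample, and 0 columns of per-sample values were left out.

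Values were computed in R 4.3.3 with limma 3.58.1: background correction by normexp (negative controls were inferred through the detection calls, and 16 was the offset), then quantile normalisation and log2. The offset compresses the fold changes of dim probes. The 16110 probes tested had a detection p under 0.05 on 3 or more arrays. A cubic in hours was fitted with lmFit and eBayes (intensity trend), and p-values, all two-sided or F-tests, were adjusted by Benjamini-Hochberg over all probes tested. The number of arrays limits the precision. Since each time point had 1 array, p-values measure only the scatter of arrays around the curve, which may be technical. In a simulation of 16110 probes, 78.5% of linear changes of 1 log2 unit were recovered and 3.68% of calls were false. Its noise was independent between arrays and held no shifts between sets of arrays. The share of false calls in the real data, where such sets were seen, is therefore not known from it.

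Every probe of the 9 genes was described, other iron genes could be named if past the threshold for a linear trend, and 3 genes of most like course were named per time-dependent gene. The genes and lists were chosen with earlier results of these data known. Alternatives were background correction, offset, normalisation, filter, array weights, shape of the curve, set of arrays and each array left out. Sequences and motif matches were read from RefSeq tables in Python 3.11.15 and plots drawn with matplotlib 3.10.9. Some results are not reported here.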

Additional observations from a re-analysis of the deposited data

How the results depend on the processing

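No paired analysis was possible because no array shared its time with another. TFRC kept its direction under all alternatives and its call under all but the set of arrays as a factor, and SLC11A2 kept its direction. Median scaling left 3 genes that depended on time and 2 that departed from a line, and cyclic loess, array weights and a quadratic left 2 that departed. With a step between 21 and 24 h 2 of the genes and 10 other iron genes had a linear trend, and with the set as a factor 0 and 0. ACO1 turned to -0.0283 with cyclic loess and -0.73 with the step, and IREB2 to 0.0896 with the step and 0.62 with the set, and LCN2 to -0.0613 with the set. The causes were not tested. Leaving out single arrays gave 3 (without 0 h) to 6 (without 12 h) genes that depended on time, 2 (without 0 h) to 5 (without 45 h) with a linear trend, 1 (without 3 h) to 4 that departed from a line, and 20 to 28 other iron genes with a trend. It also gave changes of -0.0115 (without 12 h) to 0.11 for ACO1 and of -0.14 to 0.0129 (without 39 h) for IREB2. Of 284 alternative values 9 turned in sign, 10 lost a call and 3 gained one, and 14 counts moved by over 1.5 times. Settings for the ferritin heavy chain-like probes and single other iron genes were added after seeing the data. The median change over all probes was 0.05 and between 0.003 and 0.04 under other scalings, and the share of rising among called probes 54.5%, or 48% with cyclic loess. The position on the scale is given as both percent and rank above. Signals near the top of the scale limit what can be seen for FTL and FTHL7, and dim signals for CP.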

Other observations

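Besides the genes with a linear trend, 5 other iron genes depended on time without one. All but CIAPIN1 (limma adjusted p = 0.052) also departed from a straight line. STEAP3, the endosomal ferrireductase of erythroid cells, was lowest at 0 h (11.44) and highest at 33 h (12.06), a 1.55-fold range. UROS, an enzyme of haem synthesis, ran from 12.49 at 18 h to 13.14 at 45 h (1.58-fold), and BLVRB, a biliverdin reductase, from 12.26 at 12 h to 12.85 at 6 h (1.5-fold). CIAPIN1, of cytosolic iron-sulphur assembly, was highest at 0 h (12.20) and lowest at 45 h (11.60), and PCBP2, an iron chaperone, spanned 1.22-fold. The adjusted p for time (limma) was 0.00723 for STEAP3, 0.0165 for UROS, 0.0194 for BLVRB, 0.0359 for CIAPIN1 and 0.0148 for PCBP2.

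Across the sets of 4 arrays, BOLA3 had means of 13.88, 12.92, 12.88 and 12.74 on the log2 scale, with its drop at the same border of sets as that of TFRC. It was picked after its values were seen.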
